A study of Mus musculus with 35 samples.

Results

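The acid-base and proton pump genes described here are the subunits of the vacuolar proton pump (V-ATPase) and its accessory proteins, the carbonic anhydrases, and 9 genes for bicarbonate and ammonia transporters, their transcription factors and a pH sensor. They were chosen by symbol, as all genes starting with Atp6v or Atp6ap, all Car genes with a number, and Slc4a1, Slc4a4, Slc4a9, Slc26a4, Foxi1, Rhcg, Rhbg, Insrr and Hmx2. The rule found 45 of the 18193 genes with a probe set on the arrays, and 42 of them were among the 13004 genes bright enough to be tested. The 3 that were too dim were Atp6v1e2, Car1 and Car6. Whole-kidney RNA of FVB/NJ mice was measured at 2 months of age (6 diabetic and 6 control arrays), 4 months (7 diabetic and 4 control arrays) and 8 months (6 and 6). Diabetes came from the OVE26 line, which is known to carry a calmodulin transgene driven by an insulin promoter in pancreatic beta cells, so that insulin is lacking from early life. The labels give the controls the same strain and name no treatment in either group. They do not say whether each array came from a separate animal, and p-values measure the spread between these arrays.

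The kidney holds blood pH by taking back filtered bicarbonate, mostly in the proximal tubule, and by secreting acid or base in the intercalated cells of the connecting tubule and collecting duct. Type A intercalated cells pump protons into the urine with a V-ATPase in their apical membrane and return bicarbonate to the blood through the exchanger AE1 (Slc4a1), while type B cells secrete bicarbonate into the urine through pendrin (Slc26a4). Carbonic anhydrases supply the protons and bicarbonate for both directions, and the Rh glycoproteins carry the ammonia that buffers secreted acid. The V-ATPase also acidifies lysosomes and other vesicles in every cell, and several of its subunits have a widely expressed isoform beside one that is enriched in intercalated cells.

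The promoters of 4 members are shown because their genes carry the patterns described below or are known targets or regulators in the intercalated cell. Each is the 250 bases before the RefSeq start of the gene on mouse build GRCm38.p6, written 5′ to 3′ on the strand of the gene. They are Slc26a4 (chr12:31559985-31560234, minus strand), the member with the lowest adjusted p at 8 months, Foxi1 (chr11:34208090-34208339, minus strand), its forkhead regulator, Rhcg (chr7:79617658-79617907, minus strand), an ammonia transporter gene, and Atp6v1b1 (chr6:83742767-83743016, plus strand), the intercalated cell isoform of a pump subunit. Capitals mark the letters TGTTTA, the core of the motif that forkhead factors such as Foxi1 are known to bind, searched on both strands.
Slc26a4: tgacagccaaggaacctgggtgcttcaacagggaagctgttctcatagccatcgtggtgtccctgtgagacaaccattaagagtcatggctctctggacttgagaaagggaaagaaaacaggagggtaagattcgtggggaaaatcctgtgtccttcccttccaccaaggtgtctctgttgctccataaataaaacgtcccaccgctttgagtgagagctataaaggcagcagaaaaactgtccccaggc
Foxi1: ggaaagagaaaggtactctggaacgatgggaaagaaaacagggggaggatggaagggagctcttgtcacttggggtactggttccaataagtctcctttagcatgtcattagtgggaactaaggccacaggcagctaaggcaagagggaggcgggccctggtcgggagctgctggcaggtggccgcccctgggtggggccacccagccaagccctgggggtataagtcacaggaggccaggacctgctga
Rhcg: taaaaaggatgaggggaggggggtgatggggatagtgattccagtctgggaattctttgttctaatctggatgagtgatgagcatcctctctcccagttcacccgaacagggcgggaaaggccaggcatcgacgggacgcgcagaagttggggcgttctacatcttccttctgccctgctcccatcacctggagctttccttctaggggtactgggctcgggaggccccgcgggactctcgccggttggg
Atp6v1b1: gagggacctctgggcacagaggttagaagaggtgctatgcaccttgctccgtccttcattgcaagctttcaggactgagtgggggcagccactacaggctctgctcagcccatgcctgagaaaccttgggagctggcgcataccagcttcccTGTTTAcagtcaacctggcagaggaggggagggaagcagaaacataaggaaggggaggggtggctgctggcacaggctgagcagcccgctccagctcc
Of these 4 windows, TGTTTA stood in the Atp6v1b1 promoter alone, beginning 98 bases before the start. The RefSeq table held 30 of the 45 members, and 2 of the 30 had the letters (6.67%), Atp6v1b1 and Car12, against 13.5% of the 27025 genes in the table. Of the 5 members in the table that were lower in diabetic kidneys at 8 months, 0 had them. The letters TCACGTGA, which are known as the site of the lysosomal regulator TFEB, were found before 1 of 14 V-ATPase subunit genes in the table, Atp6v1a, and before 0.907% of all its genes. A match describes the letters of this window only.

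Signals are log2 values, differences are diabetic minus control ± SE of the limma fit over all 35 arrays, and a gene is called when its p, adjusted over the 13004 genes, is under 0.05. Where 3 signals of a group are given, they are the lowest, the median and the highest array. The arrays of 2 months varied most, with a median SD within groups of 0.213 over the members and 0.191 over all genes. It was 0.123 and 0.120 at 4 months, and 0.145 and 0.141 at 8 months. The 3'/5' log2 ratio of the beta-actin control probe sets, a measure of RNA integrity, spanned 0.81 to 2.56 at 2 months, 0.49 to 0.72 at 4 months and 0.78 to 1.05 at 8 months. At 8 months the controls had 0.93 to 1.05 and the diabetic arrays 0.78 to 0.95, and the part of this ratio in the 8-month results was not tested. The array at 2.56, control 6 of 2 months, stood at the low end of its group for several members, and this is given beside the results it touches. Arrays 5 and 6 of both 2-month groups had median signals of 6.05 to 6.09, and the other arrays of that age 5.98 to 6.03. They also stood apart in members such as Atp6v1h, at 9.30 to 9.78 where the other arrays of 2 months had 10.27 to 10.51. Controls 3 and 4 of 4 months stood apart in 2 clock genes, with Arntl at 7.84 and 8.17 and Dbp at 8.75 and 8.02. The other arrays of 4 months had Arntl at 5.54 to 6.21 and Dbp at 10.24 to 11.29. At 8 months diabetic arrays 1, 2 and 5 had Dbp at 8.25, 8.14 and 7.32 and Arntl at 6.97, 6.73 and 7.81. The other diabetic arrays of 8 months had Dbp at 10.10 to 10.64, and the controls 9.48 to 10.88, with Arntl at 5.31 to 6.77. At 2 months diabetic arrays 1, 5 and 6 and control 6 had Arntl at 7.66 to 8.28, and the others 6.52 to 6.82. The part of these clock genes was not tested beyond a clock-gene covariate and, at 4 months, fits without controls 3 and 4. The 8 proximal tubule markers and 8 principal cell markers listed all passed the brightness filter, as did 9 of 10 intercalated cell markers, while 1 of 5 skeletal muscle markers did.

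At 8 months pendrin, both transcription factor genes, AE4, Rhcg and the pH sensor Insrr fell. Among the 9 transporter, regulator and sensor genes all 9 differences were below 0 and 6 fell, with a median of -0.35 beside 0.00 over all genes tested. Of the 21 pump subunits and accessory proteins tested, 1 fell and 0 rose (3 and 2 at an unadjusted limma p under 0.05, 23.8% together, where 28.6% of all genes were). Of the 12 carbonic anhydrases tested, 2 rose and 0 fell (3 and 1 unadjusted, 33.3% together). A difference between the roles was not tested. In all, 7 of the 42 members fell (16.7%) where 6.95% of all genes tested did, and 2 rose (4.76%) where 9.87% did, which makes 9 members (21.4%) beside 16.8% of all genes. The diabetic and control arrays did not overlap for 7 members, 4 lower and 3 higher, where 9.70% of all genes had no overlap, 4.28% lower and 5.41% higher. The count of 9 was 5 without diabetic array 3 and 4 without diabetic array 6, where 1633 and 2090 of all genes were called in place of 2187. The 7 that fell were 4, 3 and 4 without diabetic array 3, diabetic array 6 and control 1. Over all genes 685, 861 and 738 fell there in place of 904. With control 6 of 2 months out of the fit, 8 members fell and 4 rose, and over all genes 1090 fell and 1510 rose in place of 904 and 1283.

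At 4 months 1 member fell and 0 rose in the limma fit (6 and 1 unadjusted, 16.7% together, beside 11.4% of all genes), where 0.554% of all genes fell and 0.415% rose, 0.969% in all. Over all genes these shares were 72 genes lower and 54 higher, and 58 and 71 after quantile normalization of all arrays. The groups did not overlap at 4 months for 8 members, 6 lower and 2 higher, where 4.81% of all genes had no overlap, 2.44% lower and 2.37% higher. When the 4-month arrays were fitted alone 4 members fell, and 207 of all genes in place of 72. At 2 months 1 member rose and 0 fell in the limma fit (6 and 2 unadjusted, 19.0% together, beside 15.2% of all genes), where 0.754% and 1.78% of all genes did, 2.54% in all. For 0 members did the groups of 2 months not overlap, where they did not for 1.5% of all genes, 0.538% higher and 0.961% lower. With the replicate numbers of 2 months as blocks, 3 rose, Atp6v1b2, Atp6v0a1 and Car12, and 168 of all genes in place of 98. The 9 transporter, regulator and sensor genes had a median of -0.06 at 2 months and -0.28 at 4 months, and 6 and 8 of the 9 differences were below 0. In whole-kidney RNA, fewer cells of a type and less RNA per cell cannot be told apart.

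**Figure D1:**
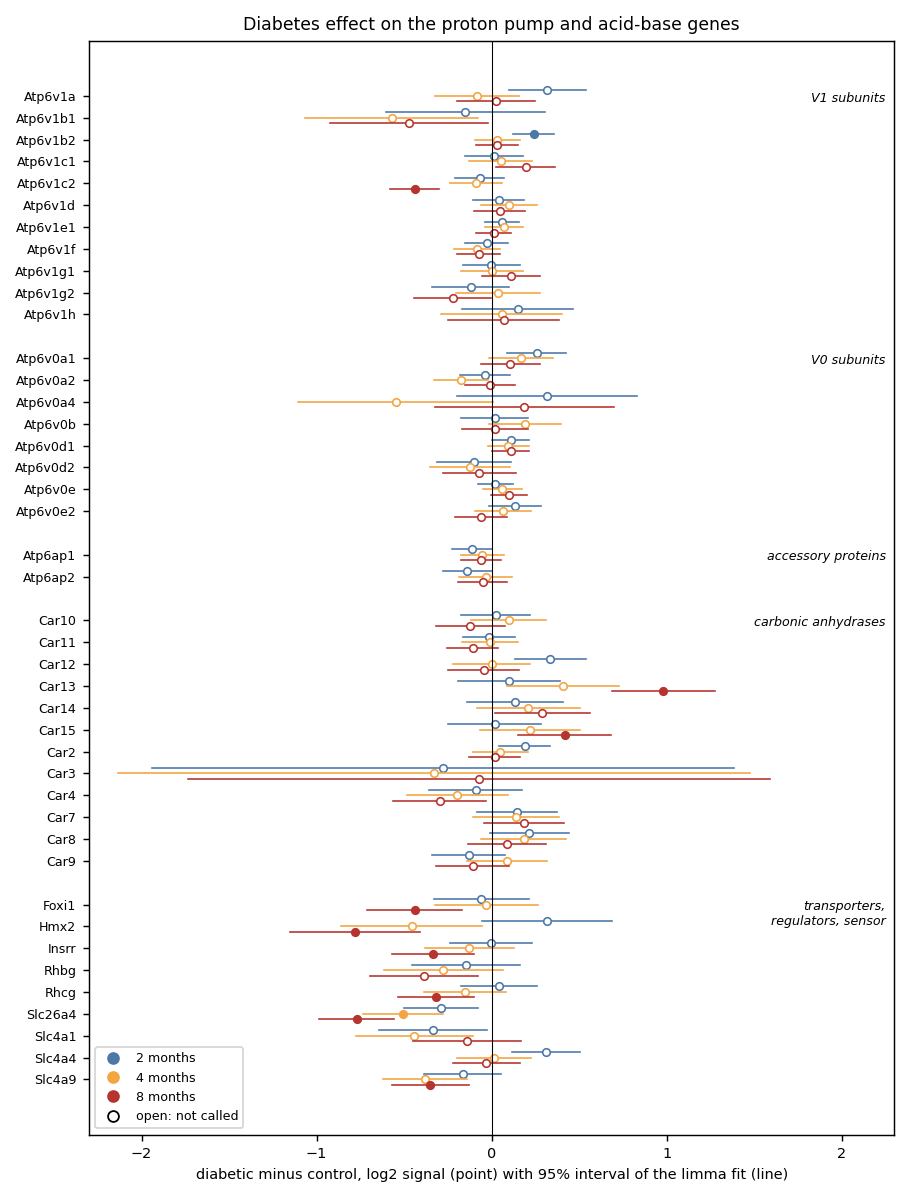
Diabetic minus control difference of the log2 signal for each of the 42 members tested at 2, 4 and 8 months, with members grouped by role; bars are 95% confidence intervals of the limma fit and filled points are called members. At 8 months 9 members are called, 6 of them among the transporters, regulators and sensor, all lower.

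Slc26a4 encodes pendrin, the apical chloride-bicarbonate exchanger of type B cells, and it fell at 4 and at 8 months. At 8 months the control arrays had signals of 10.17, 10.36 and 10.49 and the diabetic arrays 9.43, 9.51 and 9.91. Every diabetic array lay below every control array. The difference was -0.77 ± 0.10, or 1.71-fold lower, with a limma adjusted p of 2.13e-06. At 4 months the 4 controls stood at 9.94, 10.04, 9.97 and 10.11, and the 7 diabetic arrays at 9.25, 9.53 and 9.68, again without overlap. There the difference was -0.51 ± 0.11, or 1.42-fold lower, with a limma adjusted p of 0.017. That call was lost without control 3 (-0.52, limma adjusted p = 0.0646), without control 4 (-0.47, limma adjusted p = 0.104) and without both (-0.48, limma adjusted p = 0.445). These are the controls that stood apart in the clock genes. At 2 months the signals overlapped, with 9.86, 10.16 and 10.44 in controls and 9.43, 9.80 and 10.28 in diabetic kidneys. The difference of -0.29 ± 0.10 was not called (limma adjusted p = 0.143), although it passed without diabetic array 1 (-0.38, limma adjusted p = 0.0301). The difference was larger at 8 than at 2 months by -0.48 ± 0.15, which missed the threshold (limma adjusted p = 0.0597).

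Slc4a9, the gene for AE4, an exchanger of the basolateral membrane of type B cells, fell at 8 months. Control signals were 7.89, 8.10 and 8.18 and diabetic signals 7.57, 7.65 and 7.98, so the groups overlapped at their edges. The difference was -0.35 ± 0.11, or 1.28-fold lower (limma adjusted p = 0.0223). It missed the threshold without diabetic array 3 or 6 or without control 1, 2 or 3, with a limma adjusted p up to 0.0559, and with the clock-gene covariate (-0.30, limma adjusted p = 0.0557). At 4 months the controls stood within 7.52 to 7.55 and every diabetic array lay below them, at 6.77, 7.17 and 7.37. The difference of -0.38 ± 0.12 was not called in the fit over all ages (limma adjusted p = 0.134) and passed when the 4-month arrays were fitted alone (limma adjusted p = 0.0482).

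Slc4a1 encodes AE1, the basolateral exchanger of type A cells, which is also the band 3 protein of red blood cells. At 4 months it had signals of 9.01, 9.23, 9.12 and 9.16 in controls and 8.17, 8.72 and 8.97 in diabetic kidneys. The groups did not overlap, but the difference of -0.44 ± 0.16 was not called (limma adjusted p = 0.241). At 8 months the signals were 8.33, 8.57 and 8.65 in controls and 7.77, 8.56 and 8.82 in diabetic kidneys, with almost the same median. The difference was -0.14 ± 0.15, with a 95% interval from -0.45 to 0.17. At 2 months it was -0.34 ± 0.15 (limma adjusted p = 0.273). The second probe set of Slc4a1, nearly as bright, differed by -0.17 ± 0.13, -0.20 ± 0.14 and -0.20 ± 0.13 at 2, 4 and 8 months, not called. Of 8 red blood cell markers listed, 1 passed the filter, Alas2, which was not called at 8 months (0.94 ± 0.38, limma adjusted p = 0.085), and its part in the Slc4a1 signal was not tested.

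Slc4a4 encodes NBCe1, the sodium-bicarbonate cotransporter that returns bicarbonate from the proximal tubule to the blood. Its signals at 8 months were 12.86, 12.90 and 12.98 in controls and 12.81, 12.88 and 12.95 in diabetic kidneys. The groups overlapped almost fully, and the difference was -0.03 ± 0.10, with a 95% interval from -0.22 to 0.16. At 2 months it was 0.31 ± 0.10 and not called (limma adjusted p = 0.0729), from 12.22, 13.01 and 13.17 in controls to 13.05, 13.22 and 13.35 in diabetic kidneys. The lowest control there was control 6, the array with the highest beta-actin ratio. The other controls stood at 12.96 to 13.17, and the gene did not pass without control 6 alone. With arrays 5 and 6 of both groups left out the gene passed, with a difference of 0.24 (limma adjusted p = 0.0452), and with them as a batch term (limma adjusted p = 0.0343). It also passed with either quantile normalization (limma adjusted p = 0.0231 and 0.0225), with the clock-gene covariate (limma adjusted p = 0.0491) and without control 5 (limma adjusted p = 0.0269).

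The ammonia transporter genes Rhcg and Rhbg encode Rh glycoproteins of the apical and basolateral membranes of the collecting duct. Rhcg fell at 8 months, from 10.02, 10.14 and 10.29 in controls to 9.41, 9.92 and 10.13 in diabetic kidneys, with overlap. The difference was -0.32 ± 0.11, or 1.25-fold lower (limma adjusted p = 0.0354). The call was lost without diabetic array 3 or 6 or without control 1, 2 or 3, and the difference was -0.23 without diabetic array 3 (limma adjusted p = 0.143). It was also lost when the 8-month arrays were fitted alone (limma adjusted p = 0.0615). Rhbg stood at 9.10, 9.51 and 9.60 in controls and 8.31, 9.19 and 9.76 in diabetic kidneys. The highest diabetic array was above all controls, and the difference of -0.39 ± 0.15 was not called (limma adjusted p = 0.0804). It passed with either quantile normalization (limma adjusted p = 0.0333 and 0.0359), with a replicate block (adjusted p = 0.0221), without diabetic array 5 (-0.53, adjusted p = 0.00924) and without control 2 (-0.46, adjusted p = 0.0497). At 4 months the differences were -0.15 ± 0.12 for Rhcg and -0.28 ± 0.17 for Rhbg, neither called.

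**Figure D2:**
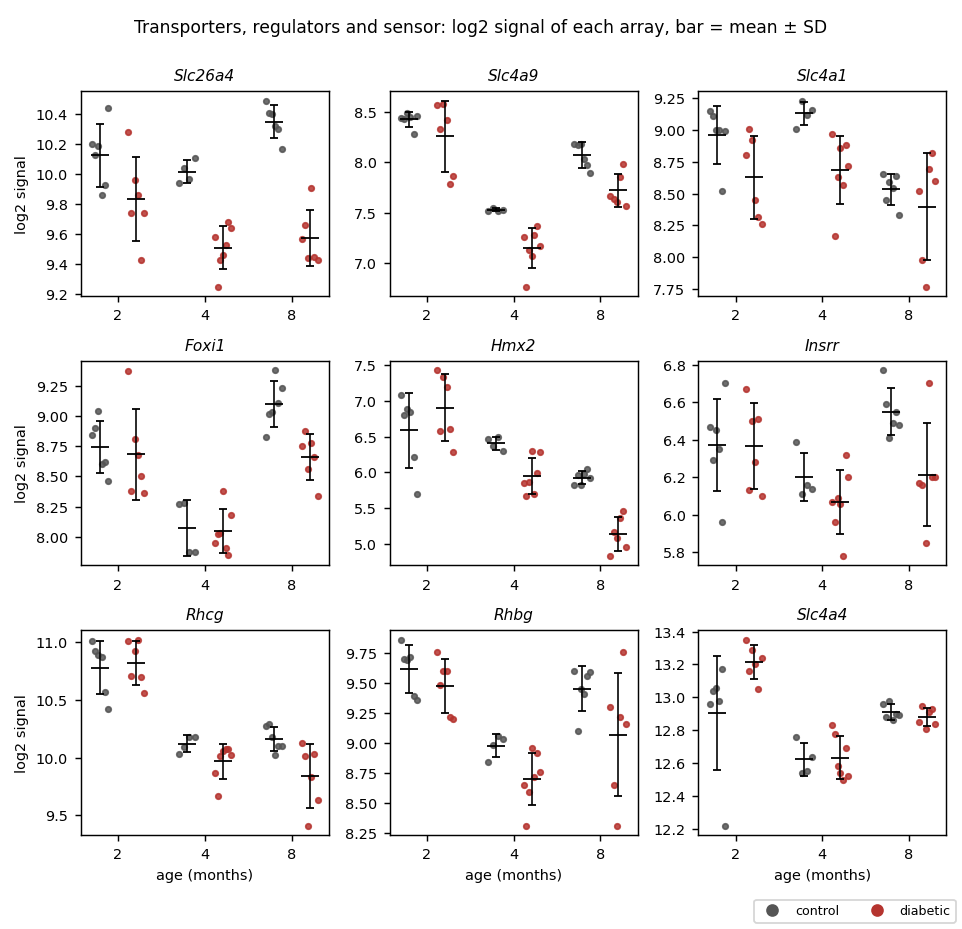
Log2 signal of each array (y axis) at 2, 4 and 8 months (x axis) for the 9 transporter, regulator and sensor genes, with control arrays in grey, diabetic arrays in red and bars at the mean ± SD. At 8 months the Slc26a4 and Hmx2 points of the diabetic kidneys lie wholly below those of the controls, while the Foxi1 and Rhcg points overlap.

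Both transcription factor genes fell at 8 months. Foxi1, a forkhead factor needed for the formation of intercalated cells, had signals of 8.83, 9.07 and 9.38 in controls and 8.34, 8.70 and 8.88 in diabetic kidneys. Only the edges of the groups overlapped, and the difference was -0.44 ± 0.13, or 1.36-fold lower (limma adjusted p = 0.0188). It was lost without diabetic array 6 or without control 4, where it stood at -0.38 with a limma adjusted p of 0.0567 and 0.0573. At the earlier ages Foxi1 differed by -0.06 ± 0.13 and -0.03 ± 0.14, not called at either. Hmx2, a homeobox factor, stood at 5.82, 5.94 and 6.05 in the 8-month controls and at 4.83, 5.13 and 5.46 in the diabetic kidneys, without overlap. Its difference was -0.78 ± 0.18, or 1.72-fold lower (limma adjusted p = 0.00238). The diabetic median was below the brightness filter of 5.273, so the diabetic level is less certain than the control level. At 4 months Hmx2 differed by -0.46 ± 0.20 (limma adjusted p = 0.361) and at 2 months by 0.32 ± 0.18 (limma adjusted p = 0.423). The lowest 2-month control of Hmx2, at 5.70 where the next had 6.22, was control 6, the array with the highest beta-actin ratio. Control 5 was that next array, and diabetic arrays 5 and 6 stood at 6.61 and 6.29. Controls 1 to 4 had 6.81 to 7.08 and diabetic arrays 1 to 4 had 6.58 to 7.43.

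Insrr, the insulin receptor-related receptor, is known as a sensor of alkaline extracellular pH in type B cells. At 8 months it fell from 6.41, 6.52 and 6.77 in controls to 5.85, 6.18 and 6.70 in diabetic kidneys. The difference was -0.34 ± 0.12, or 1.26-fold lower, with a limma adjusted p of 0.0402. The groups overlapped, and the call was lost in 9 of the 12 fits that left out an array, all but those without diabetic array 4, control 3 or control 6. The limma adjusted p was at most 0.140, without diabetic array 3. It was also lost with the clock-gene covariate (limma adjusted p = 0.0615) and in the 8-month arrays alone (limma adjusted p = 0.0516). At 2 and 4 months the differences were -0.00 ± 0.12 and -0.13 ± 0.13, not called.

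Most pump subunits held close to the controls at 8 months. The V1 sector, the cytosolic part that splits ATP, had a median difference of 0.02 over 11 subunits tested, and the V0 sector, which carries the protons through the membrane, 0.06 over 8. Atp6v1a, the catalytic A subunit, had 8-month signals of 12.36, 12.57 and 12.66 in controls and 12.48, 12.56 and 12.65 in diabetic kidneys, with a difference of 0.02 ± 0.11 and a 95% interval from -0.20 to 0.24. The accessory proteins Atp6ap1 and Atp6ap2, the latter known as the prorenin receptor, differed by -0.06 ± 0.06 and -0.05 ± 0.07. Over the V0 subunits the 8-month differences ran from -0.07 to 0.19, and 0 of 8 were called by limma (1 at an unadjusted p under 0.05). The widely expressed subunits are found in every cell of the kidney, so their whole-tissue signal is not that of intercalated cells alone.

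Atp6v1c2, an isoform of the C subunit enriched in intercalated cells, was the pump gene that fell. Its 8-month signals were 7.30, 7.41 and 7.46 in controls and 6.68, 7.04 and 7.12 in diabetic kidneys, without overlap. The difference was -0.44 ± 0.07, or 1.36-fold lower (limma adjusted p = 1.63e-05). At 2 and 4 months it was -0.07 ± 0.07 and -0.09 ± 0.07, not called, with overlap at both ages. Atp6v1c1, the widely expressed C subunit, stood at 10.57, 10.70 and 10.75 in the 8-month controls and at 10.76, 10.84 and 11.00 in the diabetic kidneys. All diabetic arrays were above all controls, but the difference of 0.19 ± 0.08 was not called (limma adjusted p = 0.107). The standard error of this gene includes control 6 of 2 months, which stood at 10.12 where the next array had 10.63, and with that array out of the fit the same 0.19 passed (limma adjusted p = 0.0115).

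Atp6v1b1, the B1 subunit, is the isoform of the apical pump of intercalated cells, and its loss is known to cause distal renal tubular acidosis. At 8 months it stood at 7.44, 7.54 and 7.58 in controls and at 6.73, 7.06 and 7.42 in diabetic kidneys. At 4 months the controls were at 8.40, 8.39, 8.75 and 8.62 and the diabetic arrays at 7.50, 8.03 and 8.24. The groups did not overlap at either age. Still, the differences of -0.47 ± 0.22 and -0.57 ± 0.24 were not called (limma adjusted p = 0.154 and 0.349). The fit takes 1 spread over all ages, and control 6 of 2 months stood at 6.14 where the next array had 7.60. In fits of each age alone the gene passed at 8 months (limma adjusted p = 0.00818) and at 4 months (limma adjusted p = 0.0381), and without that control at 8 months too (limma adjusted p = 0.0262).

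Atp6v0a4, the a4 subunit that anchors the pump in the apical membrane of intercalated cells, was not called at any age in the main fit. A difference of its diabetes effect between ages was not called either (F test, limma adjusted p = 0.367). At 4 months its signals were 9.25, 8.90, 9.17 and 8.93 in controls and 8.13, 8.52 and 8.83 in diabetic kidneys, without overlap. The difference of -0.55 ± 0.27 was not called over all ages (limma adjusted p = 0.454) and passed in the 4-month arrays alone (limma adjusted p = 0.0401). By 8 months the groups overlapped, at 8.40, 8.51 and 8.84 in controls and 8.46, 8.67 and 9.25 in diabetic kidneys. The difference there was 0.19 ± 0.25. Control 6 of 2 months, at 7.32 where the next array had 9.29, adds to the standard error of this gene as well. Atp6v0d2, the d2 subunit of intercalated cells, differed by -0.10 ± 0.10, -0.13 ± 0.11 and -0.07 ± 0.10 at 2, 4 and 8 months, and its partner Atp6v0d1 by 0.11 ± 0.05, 0.10 ± 0.06 and 0.11 ± 0.05, none called. Atp6v0a1, the widely expressed a subunit, differed by 0.26 ± 0.08, 0.17 ± 0.09 and 0.10 ± 0.08, and Atp6v1g1, a widely expressed G subunit, by -0.00 ± 0.08, 0.00 ± 0.09 and 0.11 ± 0.08, none called. The 2-month difference of Atp6v0a1 passed with the replicate block (0.26, limma adjusted p = 0.0441) and with arrays 5 and 6 of both groups as a batch term (adjusted p = 0.0392) or left out (0.35, adjusted p = 0.0328). It also passed without diabetic array 2 (0.31, limma adjusted p = 0.0324) or without control 5 (0.32, limma adjusted p = 0.0211). Atp6v1g3 was not analysed here.

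Atp6v1b2, the widely expressed B2 subunit, was the member called at 2 months, and it rose. Control signals were 11.87, 12.04 and 12.30 and diabetic signals 12.15, 12.29 and 12.38, with overlap. The difference was 0.24 ± 0.06, or 1.18-fold higher (limma adjusted p = 0.0202). It was lost without diabetic array 3 (0.22, limma adjusted p = 0.0577), without control 1 (0.20, limma adjusted p = 0.0685) and in the 2-month arrays alone (limma adjusted p = 0.309). Its dimmer probe sets differed by 0.27 and -0.08, not called, and by -0.05 in one too dim to be tested, and the mean of all its probe sets by 0.09 (limma adjusted p = 0.407). At 4 and 8 months the B2 difference was 0.03 ± 0.06 at both ages, not called.

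**Figure D3:**
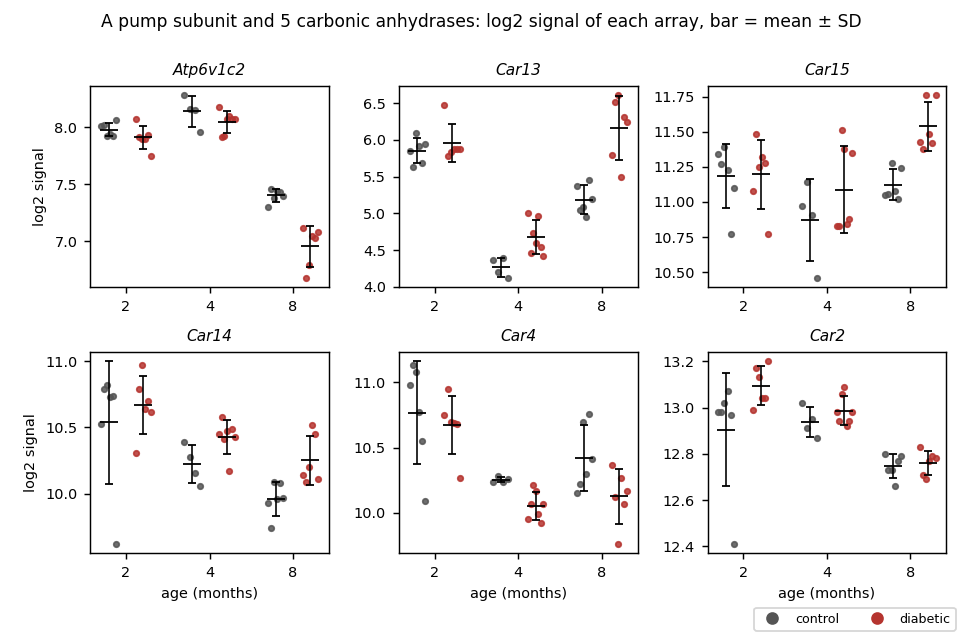
Log2 signal of each array (y axis) at 2, 4 and 8 months (x axis) for Atp6v1c2, Car13, Car15, Car14, Car4 and Car2, with control arrays in grey, diabetic arrays in red and bars at the mean ± SD. At 8 months all diabetic points are above the controls for Car13 and Car15 and below them for Atp6v1c2, and control 6 of 2 months is the low point of Car14 and Car2.

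The intercalated cell isoform was set against its widely expressed partner within each array. The partner's whole-kidney signal comes from every cell type, so whether isoforms were exchanged within a pump was not tested. The log2 difference of the 2 isoforms cancels a scale shared by both, and 4 pairs at 3 ages gave 12 exact permutation tests, two-sided, with p adjusted over the 12. Of these, 6 passed, all of them with a shift toward the widely expressed isoform. Values are relative to the control mean of the age, and 0.00216 is the smallest unadjusted p that 6 arrays against 6 can give, and 0.00303 that 7 against 4 can. The size of a difference between isoforms within an array has no meaning across probe sets, only its shift between groups does.

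The B1 to B2 difference shifted at both later ages. In the 8-month kidneys control arrays lay between -0.10 and 0.07 and the diabetic arrays between -0.81 and -0.23, a shift of -0.50 (exact permutation, adjusted p = 0.00866). At 4 months the controls lay between -0.14 and 0.18 and the diabetic arrays between -1.05 and -0.27, a shift of -0.60 (exact permutation, adjusted p = 0.0121). The groups did not overlap at either age. Without control 3 at 4 months the shift was -0.55 and the adjusted p 0.05 by the exact permutation test. At 2 months the groups overlapped, with a shift of -0.39 (exact permutation, adjusted p = 0.404).

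The a4 to a1 difference shifted at 4 months only among the 3 ages tested. Diabetic arrays there lay between -1.17 and -0.39 and controls between -0.12 and 0.13, a shift of -0.71 without overlap (exact permutation, adjusted p = 0.0121). At 8 months the shift was 0.08 and at 2 months 0.06, with overlap (exact permutation, adjusted p = 0.735 and 0.939). Whether the 4-month shift differs from those at the other ages was not tested. The c2 to c1 difference shifted at 8 months, by -0.63, with diabetic arrays between -0.87 and -0.44 and controls between -0.18 and 0.16 (exact permutation, adjusted p = 0.00866). At 4 months its shift was -0.14 (exact permutation, adjusted p = 0.355) and at 2 months -0.08 (exact permutation, adjusted p = 0.774).

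The d2 to d1 difference made a small and even shift. It was -0.18 at 8 months, where diabetic arrays lay between -0.24 and -0.13 and controls between -0.07 and 0.10 without overlap (exact permutation, adjusted p = 0.00866). At 4 months it was -0.22, with the groups meeting at -0.12 (exact permutation, adjusted p = 0.0121). At 2 months the shift of -0.21 was not past the threshold (exact permutation, adjusted p = 0.319), and without control 6 it was -0.31 (exact permutation, adjusted p = 0.0186). A fall of one isoform and a rise of the other both give such a shift. For the c2 to c1 pair at 8 months the limma differences of the members were -0.44 and 0.19, and for B1 and B2 they were -0.47 and 0.03.

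**Figure D4:**
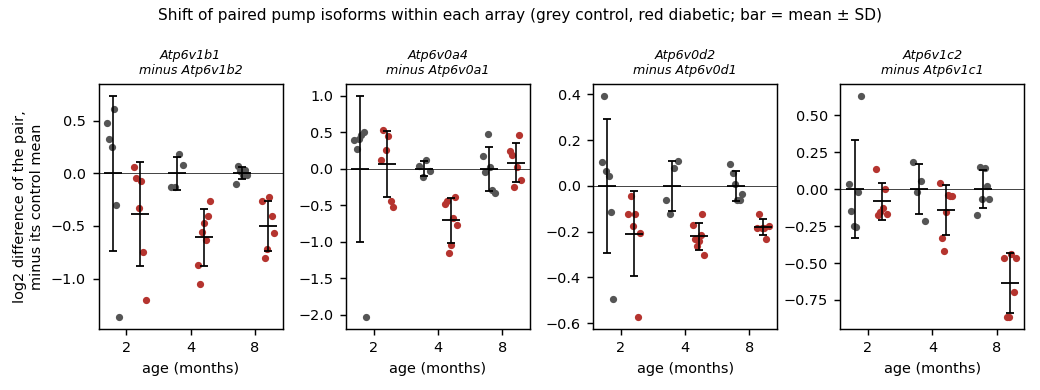
Log2 signal of the intercalated cell isoform minus that of its widely expressed partner in each array, relative to the control mean of the same age, for 4 subunit pairs at 2, 4 and 8 months, with controls in grey, diabetic arrays in red and bars at the mean ± SD. Diabetic arrays lie below all controls for B1 to B2 at 4 and 8 months, a4 to a1 at 4 months, and d2 to d1 and c2 to c1 at 8 months.

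Of the carbonic anhydrases, the largest change at 8 months was that of Car13, a cytosolic enzyme. Controls stood at 4.95, 5.14 and 5.46 and diabetic kidneys at 5.50, 6.27 and 6.61, without overlap. It rose by 0.98 ± 0.14, or 1.97-fold (limma adjusted p = 7.59e-06). At 4 months all diabetic arrays, at 4.42, 4.60 and 5.00, were above all controls, at 4.12, 4.28 and 4.39. The difference there was 0.41 ± 0.16 and not called (limma adjusted p = 0.271). At 2 months it was 0.10 ± 0.14. Car13 is dim, with a control median below the filter value of 5.273 at 4 and 8 months. Its mean over all arrays, 5.39, passed that filter narrowly, and the 8-month diabetic arrays were its brightest group. Its place among the genes tested therefore leans on the group in which it was called higher, although the call held with no filter. Its dimmer probe sets, themselves below the filter, differed by 0.57 and 0.16 at 8 months and were not tested.

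Car15, a membrane-anchored enzyme facing the tubule lumen, rose at 8 months from 11.02, 11.07 and 11.28 in controls to 11.38, 11.45 and 11.76 in diabetic kidneys, without overlap. The difference was 0.42 ± 0.13, or 1.33-fold (limma adjusted p = 0.0228). It stood at 0.37 without diabetic array 3 (limma adjusted p = 0.0675) or without diabetic array 6 (limma adjusted p = 0.0579). Car4, another membrane-anchored enzyme of the proximal tubule, stood at 10.15, 10.35 and 10.76 in the 8-month controls and 9.76, 10.15 and 10.37 in diabetic kidneys. Its difference of -0.30 ± 0.13 was not called (limma adjusted p = 0.124), although its second probe set was, at -0.38 (limma adjusted p = 0.024 over probe sets). The brightest probe set passed with either quantile normalization (-0.33 and -0.32, limma adjusted p = 0.0409 and 0.0481).

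Car2, the abundant cytosolic enzyme of intercalated and proximal cells, had 8-month signals of 12.66, 12.75 and 12.80 in controls and 12.69, 12.77 and 12.83 in diabetic kidneys. The difference was 0.02 ± 0.07, with a 95% interval from -0.13 to 0.16. At 2 months the Car2 difference was 0.19 ± 0.07 and not called (limma adjusted p = 0.169), with control 6 the lowest control. The other controls stood at 12.97 to 13.07 and the diabetic arrays at 12.99 to 13.20, and the gene did not pass without control 6. It passed with either quantile normalization (limma adjusted p = 0.0485 and 0.0477). The transmembrane enzymes Car12 and Car14 differed by -0.05 ± 0.10 and 0.29 ± 0.13 at 8 months, neither called (limma adjusted p = 0.819 and 0.147). The same 0.29 of Car14 passed with control 6 of 2 months, the lowest control at 9.62, out of the fit (limma adjusted p = 0.0205), and in the 8-month arrays alone (limma adjusted p = 0.0371). At 2 months Car12 stood at 10.95, 11.46 and 11.58 in controls and 11.55, 11.72 and 12.04 in diabetic kidneys, with overlap. The difference of 0.33 ± 0.10 was not called (limma adjusted p = 0.0622) and passed with the replicate block (limma adjusted p = 0.0292), with arrays 5 and 6 of both groups as a batch term (limma adjusted p = 0.0268) and with either quantile normalization (adjusted p = 0.0296 and 0.0215). The lowest control of Car12 at 2 months was again control 6. The other controls stood at 11.37 to 11.58, and the gene did not pass without control 6. The other carbonic anhydrases tested, Car7, Car8, Car9, Car10 and Car11, differed by -0.12 to 0.19 at 8 months and were not called at any age.

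Car3, known as a carbonic anhydrase of fat and muscle, varied more between arrays than any diabetes effect on it. Its signal ran from 4.76 to 10.78 at 2 months, from 8.46 to 11.43 at 4 months and from 7.17 to 11.97 at 8 months. The diabetic minus control difference was -0.28 ± 0.82, -0.33 ± 0.89 and -0.07 ± 0.82 at the 3 ages, not called. Across the arrays of an age it went with Adipoq, a fat cell gene that was chosen as the partner from 8 adipocyte markers. Of 5 of these tested, Adipoq was not called (0.85 ± 0.83 at 8 months), while the brown fat genes Ucp1 (-2.28 ± 0.50 at 4 months and -2.20 ± 0.46 at 8 months) and Cidea (-2.22 ± 0.52 at 8 months) fell. The Pearson r was 0.956 over 12 arrays at 2 months (permutation p = 1e-05, the smallest the permutations can give; adjusted over the 3 ages 3e-05), 0.951 over 11 at 4 months (permutation p = 0.00038, adjusted 0.00038) and 0.888 over 12 at 8 months (permutation p = 0.00016, adjusted 0.00024). Spearman's rho was 0.951 (permutation p = 2e-05, adjusted 6e-05), 0.709 (permutation p = 0.0186, adjusted 0.0186) and 0.825 (permutation p = 0.00164, adjusted 0.00246). Without the 2 arrays farthest from the median of Adipoq, r was 0.949, 0.634 and 0.595, so the size of the relation at 4 and 8 months rests in part on those arrays. The arrays share a tissue, and how much fat each held was not measured.

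**Figure D5:**
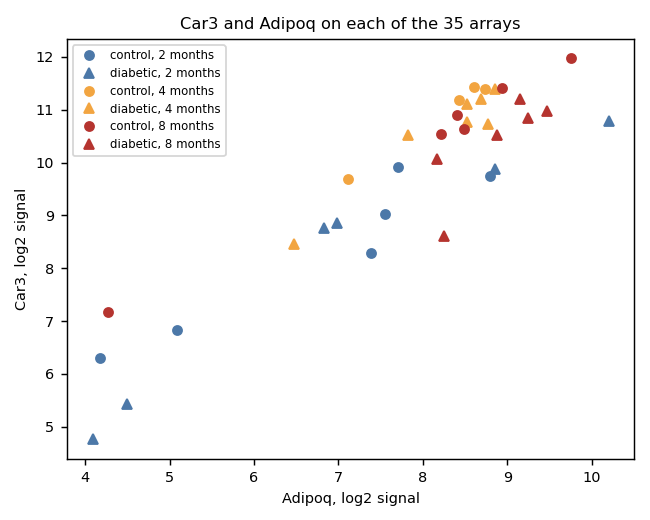
Log2 signal of Car3 against that of Adipoq, 1 point for each of the 35 arrays, coloured by age, with circles for control and triangles for diabetic arrays. The points rise together at each age, with r of 0.956, 0.951 and 0.888, and circles and triangles lie along the same band.

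The diabetes effect itself differed between ages for 3 members by the F test over the 3 ages (7.14% of members, 2.50% of all genes) and for the same 3 between 8 and 2 months, where 3.89% of all genes were called. They were Hmx2, with -1.10 ± 0.26 for the effect at 8 minus that at 2 months (limma adjusted p = 0.0108), Atp6v1c2, with -0.37 ± 0.10 (limma adjusted p = 0.0226), and Car13, with 0.88 ± 0.20 (limma adjusted p = 0.00973). In each, the effect at 8 months was called and that at 2 months was not. The 2-month effect of Hmx2, 0.32, includes the low signal of control 6 given above. Between 4 and 2 months 0 members and 0 of all genes were called by limma, and 6 members (14.3%) were below an unadjusted p of 0.05, beside 5.08% of all genes. Between 8 and 4 months 0 members were called by limma (3 unadjusted, 7.14%, beside 12.4% of all genes) and 0.877% of all genes were. The count of 3 was 1 without control 3 of 2 months and without diabetic array 2 or 3 or control 2, 3 or 4 of 8 months.

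Genes of the same pathways outside the members were counted from lists of other pump and acid-base genes. Of 12 pump assembly and regulation genes tested (of 13 listed), 1 rose and 1 fell at 8 months, with a median of 0.08. Tcirg1, the a3 subunit of lysosomes and osteoclasts, rose by 0.42 ± 0.09 (limma adjusted p = 0.000997), and Ncoa7, a TLDc-domain protein that binds the pump, fell by 0.27 ± 0.09 (limma adjusted p = 0.0403). Of 17 other transport and ammonia genes tested (of 22 listed), 1 rose and 2 fell at 8 months, with a median of -0.01. Slc38a3, the glutamine carrier that feeds ammonia formation, was higher by 0.98 ± 0.19 (limma adjusted p = 0.000413) and already by 0.80 ± 0.19 at 2 months (limma adjusted p = 0.0193). The genes that fell were Oxgr1, the alpha-ketoglutarate receptor of type B cells (-0.49 ± 0.14, limma adjusted p = 0.0151), and Slc26a7, an anion exchanger of type A cells (-0.50 ± 0.16, limma adjusted p = 0.0315), the latter named after its values were seen. At 2 months the other gene that rose was Slc26a6, an apical anion exchanger of the proximal tubule (0.52 ± 0.14, limma adjusted p = 0.0403).

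Markers of intercalated cells that are not members stood beside these results. Of 9 tested, 1 fell at 2 months, 3 at 4 months and 3 at 8 months, where 1 rose, with medians of -0.01, -0.30 and -0.18. Kit, a receptor kinase, fell by 0.34 ± 0.09, 0.50 ± 0.09 and 0.44 ± 0.09 at the 3 ages, and Aqp6, a vesicle water channel of type A cells, fell by 0.35 ± 0.08 at 4 months and 0.47 ± 0.08 at 8 months. The third of 4 months was the vasopressin receptor Avpr1a (-0.52 ± 0.12), that of 8 months Oxgr1, which stands in both lists, and P2ry14, named after its values were seen, rose at 8 months (0.35 ± 0.12). Their summed signal, on the log2 scale over 10 genes, lay between 12.12 and 12.26 in the 8-month controls and between 11.91 and 12.11 in diabetic kidneys, without overlap. At 4 months it lay between 11.88 and 12.00 in controls and between 11.67 and 11.89 in diabetic kidneys. The part of cell number in the member changes was not tested.

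Other cell types moved at 8 months as well. Of 8 principal cell markers, the neighbours of intercalated cells, 2 rose, Aqp2 (0.66 ± 0.18) and Aqp3 (0.49 ± 0.18), the latter named after its values were seen, and 1 fell, Aqp4 (-0.72 ± 0.17). Their summed signal overlapped, at 13.20 to 13.49 in controls and 13.31 to 13.62 in diabetic kidneys. Of 8 proximal tubule markers 5 fell, with a median of -0.29, and of 6 markers of the thick ascending limb and distal convoluted tubule 5 fell, with a median of -0.53. Of 11 macrophage markers tested 10 rose, with a median of 1.52 and a summed signal of 11.96 to 12.31 in controls and 12.64 to 14.18 in diabetic kidneys. Of 15 lysosome genes tested 5 rose and 0 fell, with a median of 0.15, among them Ctsd (0.51 ± 0.08) and Hexa (0.48 ± 0.08). Whether macrophages bear on the Car13, Tcirg1 or other pump gene signals was not tested.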

How the data were processed

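Whole-kidney RNA of diabetic and control mice was measured on 35 Affymetrix arrays, per the labels from biotinylated cRNA. The deposited values are log2 signals of 45101 probe sets, a scale read from their range. How the authors corrected, summarized and normalized them is not stated in the labels. The mean signal differed between ages, so groups were compared within an age.

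Genes were named from the platform annotation, which gave 34945 probe sets 1 gene, 932 several and 9160 none, and those with 1 were used. Of their symbols 34741 matched RefSeq by identifier and 0 changed. The brightest probe set stood for each of 18193 genes, and genes under a mean of 5.273, the 40th percentile, were left out. A mean per group was fitted across the arrays (limma 3.58.1, R 4.3.3 and the package data.table, version 1.17.8; 29 residual and 33.7 moderated degrees of freedom), in scripts tested on simulated data. Adjusted p-values are Benjamini-Hochberg over the 13004 genes. Isoform pairs used exact permutation tests over arrays, and Car3 and Adipoq 1e+05 permutations. Of 5 pairs listed, 4 were measured.

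The members, lists and tests were chosen with earlier results of these data known. Named were every member called at any age, 27 listed genes whatever their result, and up to 3 genes per other list with the smallest p. Alternatives were no filter, the mean of probe sets, quantile normalization, a block of replicate number, a clock-gene covariate (Arntl minus Dbp), single ages, arrays 5 and 6 of 2 months as a batch or left out, controls 3 and 4 of 4 months left out, and each array left out. Leaving control 6 of 2 months out of the fit was added after the data were seen. Arrays of 1 number in both groups deviated together at 2 months (r from 0.246 to 0.444 in 6 of 6 pairs), while r was over 0.1 in 1 of 4 pairs at 4 months (0.0484 to 0.177) and 2 of 6 at 8 months (-0.142 to 0.233).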

Additional observations from a re-analysis of the deposited data

Results flagged for a closer look

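Over the 27 named members tested, 16 of 162 groups of 4 to 7 arrays held an array far from the others by Dixon's ratio, and chance gives about 1 in 20. Of these 16, 7 were control 6 of 2 months, the array whose beta-actin ratio was 2.56. It was the lowest control for Atp6v0a4 (7.32, next 9.29), Atp6v1b1 (6.14, next 7.60), Atp6v1c1 (10.12, next 10.63), Car12 (10.95, next 11.37), Car14 (9.62, next 10.53), Car2 (12.41, next 12.97) and Slc4a4 (12.22, next 12.96). Its part in the 2-month differences of these genes was not tested beyond leaving it out. Control 5 of 2 months was lowest for Slc4a1 (8.52, next 8.99) and Slc4a9 (8.28, next 8.43), and diabetic array 1 of that age was highest for Car13 (6.48, next 5.88).

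At 4 months control 4 was highest for Atp6ap2 (12.19, next 12.05), diabetic array 2 lowest for Atp6v0d1 (10.44, next 10.56) and diabetic array 5 lowest for Car14 (10.17, next 10.41). Car3 had 3 low arrays, control 3 of 4 months (9.69, next 11.19), diabetic array 1 of 4 months (8.46, next 10.53) and control 1 of 8 months (7.17, next 10.55). These 3 arrays were also the lowest of their groups in Adipoq.

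The diabetes effect differed between 8 and 2 months by the limma interaction term for 3 members. The difference of the effects was -1.10 for Hmx2, -0.37 for Atp6v1c2 and 0.88 for Car13.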

How the results depend on the processing

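Of the values of single members under other settings, 1575 kept direction and side of the threshold, 38 passed only there, 34 were lost and 0 reversed. Those that kept their side include members never called, while all 34 losses were calls of the main fit. At 8 months the call was lost in 11 of 20 settings for Insrr and in 6 of 20 each for Rhcg and Slc4a9. At 8 months the calls of Slc26a4, Hmx2, Atp6v1c2 and Car13 held in every setting run. The number of arrays and the dimness of Car13 and Hmx2 limit the precision, and the cause of the changes below was not tested.

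The 2-month count of 1 member, higher, was 0 with the mean of all probe sets and with the arrays of 2 months alone. It was 2 with the clock covariate, 4 with either quantile normalization or with arrays 5 and 6 as a batch term, and 3 with those arrays left out. Of all genes, 330 were called in the main fit, 262 with the mean of probe sets and 64 with the 2-month arrays alone. With the clock covariate 323 were called, with quantile normalization 378 and 390, with the batch term 696 and with arrays 5 and 6 left out 341. Leaving out each array gave 0 to 4 in all and higher, and 0 to 1 lower. The 4-month count of 1, lower, was 4 with the arrays of 4 months alone and 0 without controls 3 and 4, and 0 to 1 with each array left out. Of all genes, 126 were called at 4 months in the main fit, 358 with the 4-month arrays alone and 5 without controls 3 and 4. Without control 3 or control 4 singly, 36 and 29 were called. The 8-month count of members that rose was 4 with the arrays of 8 months alone and 4 without control 6 of 2 months. Over all genes 1304 and 1510 rose there in place of 1283. Leaving out each array gave 4 to 9 in all, 3 to 7 lower and 1 to 2 higher, and 1 to 3 members whose effect differed between ages.

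With a replicate block the count was 3 at 2 months and 2 at 4 months, where 553 and 91 of all genes were called. Sign flips of the numbered pairs, a replicate block for the isoform shifts, rest on 4 or 6 pairs. With 4 pairs no outcome can bring even the unadjusted p under the threshold. With 6 pairs the adjusted p can pass only if every shift at 2 and 8 months reaches the smallest p possible. The sign flips therefore do not decide whether the shifts hold with a replicate block, and their sizes are given. In these pairs B1 to B2 shifted by -0.73 at 4 months (exact sign-flip permutation, adjusted p = 0.214) and -0.50 at 8 months (exact, adjusted p = 0.125). The others were a4 to a1 at -0.79 and d2 to d1 at -0.23 at 4 months (exact, both adjusted p = 0.214), and d2 to d1 at -0.18 and c2 to c1 at -0.63 at 8 months (exact, both adjusted p = 0.125). The block changed no 8-month count by over 1.5 times. With each array left out, B1 to B2 at 4 months lay between -0.66 and -0.53, and d2 to d1 at 2 months between -0.31 and -0.13.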

Other observations

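Other probe sets of the members were compared by sign. Where the brightest probe set was called, 5 comparisons over 2 genes, Atp6v1b2 and Car13, gave 3 with the same sign and 2 with the opposite sign, and 0 were called by limma, but 3 of the 5 were too dim to be tested. Where it was not called, 127 comparisons over 21 genes gave 90 with the same sign, and 3 of the 88 bright enough to be tested were called. These were a dimmer probe set of Slc4a4 at 2 months, higher by 0.75 ± 0.20 (limma adjusted p = 0.045 over probe sets), that of Car4 at 8 months given above, and one of Atp6v1c1 at 8 months, higher by 0.21 (limma adjusted p = 0.047 over probe sets).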
